A study of Mus musculus with 9 samples.

Results

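The 44 cell cycle and DNA replication genes described here encode the cyclins and kinases that drive division, the proteins that load and run the replication machinery, the enzymes that make DNA precursors, and the proteins that attach and separate chromosomes. They were chosen by symbol and are 44 of the 18272 genes in the expression table, and all 44 passed the filter on low counts that left 13960 genes for testing. RNA was measured by RNA-seq in the tibia of 9 female C57BL/6J mice, 3 in each of 3 groups. NGT mice had normal glucose tolerance and received vehicle in place of streptozotocin and then saline. T1D mice had been made diabetic with streptozotocin, which kills the beta cells that secrete insulin, and were given saline afterwards. Lira mice had been made diabetic in the same way and were then given the GLP-1 receptor agonist liraglutide, a diabetes drug that mimics a gut hormone, at a daily 0.6 mg/kg. The study's methods give an age of 10 to 11 weeks when the mice were obtained and 8 weeks of treatment, whereas the label of Lira mouse 3 gives 9 weeks. Streptozotocin diabetes is a chemical model, in which beta cells are lost to a toxin and not to the immune attack of human type 1 diabetes. Each mouse gave 1 library of 13086373 to 16528394 counts.

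A dividing cell passes through G1, copies its DNA in S phase and separates the copies in mitosis. In G1, the E2F factors are held back by the retinoblastoma protein until cyclin-dependent kinases release them, and the genes for S phase are then transcribed. Genes for mitosis follow later, through the DREAM and B-MYB-FOXM1 complexes, which bind the cell cycle genes homology region (CHR), often beside CCAAT boxes bound by NF-Y. Cells at rest carry little of either set of transcripts. A whole tibia holds blood-forming marrow, which is rich in dividing erythroid, myeloid and lymphoid precursors, and the growth plate, whereas mature muscle fibers and osteocytes do not divide.

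The promoters of these genes share letters that the choice of genes did not use. Of the 44 genes, 38 were matched by symbol to 40 RefSeq promoters (GRCm38.p6, 250 bases before to 50 bases after the annotated start). Promoters of Aurkb, Ccne2, Mcm4, Kif20a, Ccna2 and Tpx2 were not analysed here. The CHR core TTTGAA stood on either strand in 20 of the 40 promoters (50%), against 17.9% of all 32851 promoters of that length. The E2F letters TTGGCGC or TTCGCGC stood in 10 (25%), against 3.89% of all promoters. CCAAT stood in 31 (77.5%), against 37.4%, and CHR together with CCAAT in 20 (50%), against 6.95%. CHR letters were found in 4 of 5 matched spindle checkpoint genes and in 4 of 5 genes of spindle motors and midzone, but in 2 of 8 genes of origin licensing and in 0 of 5 genes of the clamp and nucleotide synthesis. E2F letters were found in 5 of the 8 origin licensing genes. A match of letters is a description of these windows, and binding was not measured. The E2F letters can overlap each other on opposite strands, as they do in Mcm6, and can overlap a CCAAT box where an A precedes TTGG.

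The 100 bases up to the annotated start are shown for 4 genes with CHR and CCAAT letters, which code for proteins of mitosis, for the helicase subunit Mcm6 with E2F letters, and for Rrm1, whose window holds CCAAT alone and whose RNA had the smallest SD between mice of a group. Capitals mark complete CHR, E2F and CCAAT letters on either strand, and each sequence reads 5′ to 3′ on the strand of its gene.
Top2a, chr11:99024190-99024289, minus strand: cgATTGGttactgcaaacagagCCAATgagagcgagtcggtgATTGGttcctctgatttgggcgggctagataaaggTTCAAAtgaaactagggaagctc
Cdk1, chr10:69352913-69353012, minus strand: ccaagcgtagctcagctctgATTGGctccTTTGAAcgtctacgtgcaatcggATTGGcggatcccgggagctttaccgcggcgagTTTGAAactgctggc
Cdc20, chr4:118437344-118437443, minus strand: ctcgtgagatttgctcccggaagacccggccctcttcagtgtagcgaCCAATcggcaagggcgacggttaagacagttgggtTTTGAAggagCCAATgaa
Ube2c, chr2:164769829-164769928, plus strand: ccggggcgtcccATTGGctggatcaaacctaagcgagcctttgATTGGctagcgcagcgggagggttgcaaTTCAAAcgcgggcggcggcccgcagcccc
Mcm6, chr1:128359706-128359805, minus strand: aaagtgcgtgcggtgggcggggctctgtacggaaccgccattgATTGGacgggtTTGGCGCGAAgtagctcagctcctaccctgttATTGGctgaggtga
Rrm1, chr7:102441595-102441694, plus strand: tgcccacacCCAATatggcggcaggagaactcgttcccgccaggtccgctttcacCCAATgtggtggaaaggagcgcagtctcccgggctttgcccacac
Counted back from the start to the first base of the match, CHR letters lie within these 100 bases at -23 in Top2a, at -71 and -15 in Cdk1, at -18 in Cdc20 and at -29 in Ube2c. The median SD between mice of a group, on the log2(CPM + 0.5) scale defined with the values below, was 1.83 over the 19 matched genes with CHR letters and 1.64 over the 19 without them, and the ranges overlapped, from 0.608 to 3.08 and from 0.529 to 2.43.

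Most of the 44 genes went up and down together from mouse to mouse, with Ccne2 the clearest exception, and their mean level varied more within groups than between them. That level, the mean of log2(CPM + 1), where CPM is counts per 1000000 scaled by TMM factors, was 3.77, 1.38 and 2.52 in NGT mice 1, 2 and 3. It was 2.98, 1.74 and 4.01 in the T1D mice and 3.21, 1.53 and 5.21 in the Lira mice. Each group thus had mouse 2 at the bottom, and the groups overlapped over most of their range. Group means were 2.55 ± 1.19 in NGT, 2.91 ± 1.13 in T1D and 3.32 ± 1.84 in Lira mice (SD, n = 3), so that the differences of 0.36, 0.41 and 0.76 between groups were smaller than the pooled SD of 1.43. The summed CPM of the 44 genes ran from 160 in NGT mouse 2 to 2199 in Lira mouse 3.

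**Figure D1:**
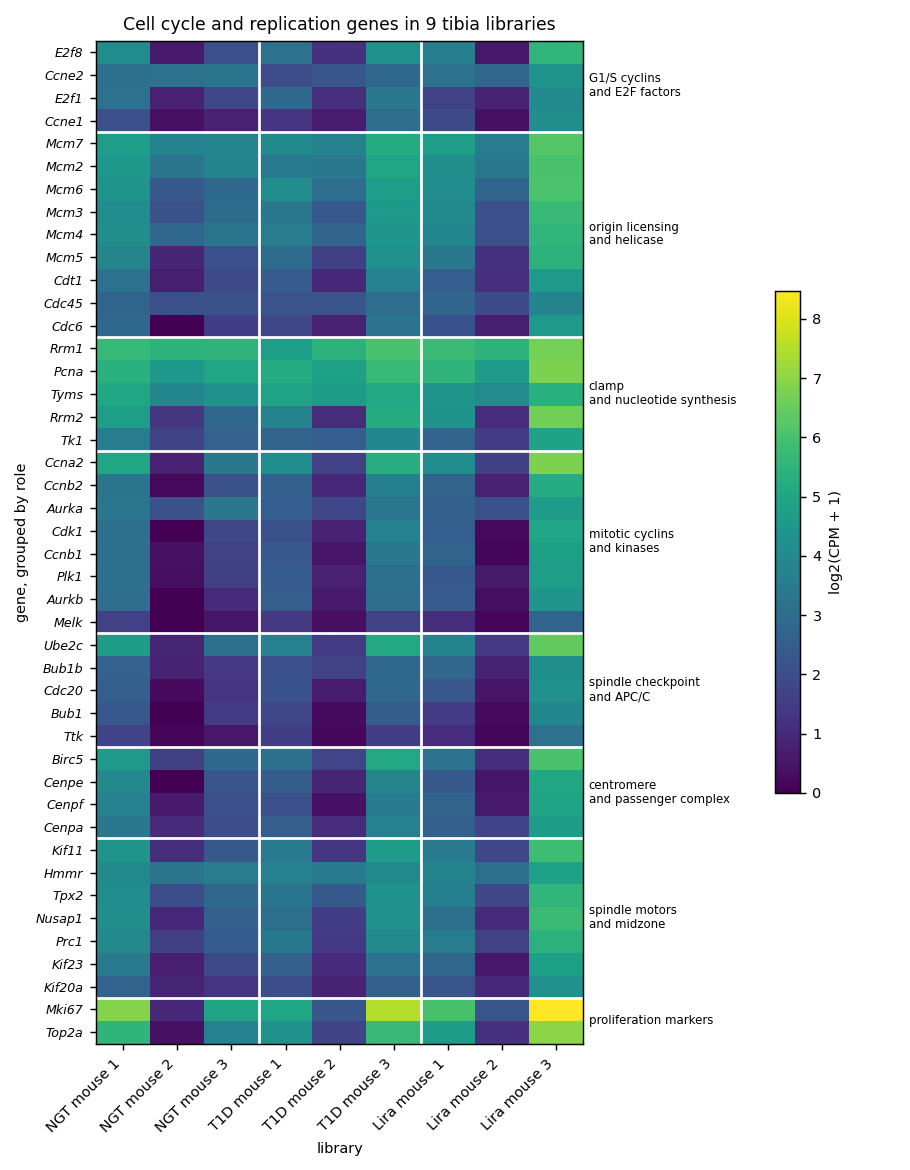
Level of each of the 44 genes, as log2(CPM + 1), in each of the 9 libraries, with genes grouped by role and ordered within a role by mean CPM, and white lines between roles and groups. The column of Lira mouse 3 is the brightest in all 44 rows, and the 3 columns of mice numbered 2 hold the lowest value of 42 rows.

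All 44 genes had their highest CPM in Lira mouse 3, which was the highest library for 19.9% of all genes tested. Of the 44, 42 had their lowest CPM in a mouse numbered 2, against 30.1% of all genes. The lowest library was NGT mouse 2 for 26 genes, Lira mouse 2 for 12 and T1D mouse 2 for 4. This split is not resolved for genes with few counts, such as Ttk with 1 count in both NGT mouse 2 and Lira mouse 2. Ccne2 and Rrm1 were lowest in T1D mouse 1. By mean level the order was Lira mouse 3, T1D mouse 3, NGT mouse 1, Lira mouse 1, T1D mouse 1, NGT mouse 3, T1D mouse 2, Lira mouse 2 and NGT mouse 2. The same order was found in 6 of the 8 roles, and in the other 2 roles the last 2 libraries changed places.

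The SD between mice of a group, on the log2(CPM + 0.5) scale, had a median of 1.65 over the 44 genes and of 0.338 over all genes tested. The SD of 32 of the 44 genes lay above the 95th percentile of all genes (1.32), and all 44 lay above the median of all genes. Mki67 and Top2a had the largest SD (3.08 and 2.77), and Rrm1, Tyms, Ccne2 and Hmmr the smallest (0.529, 0.549, 0.576 and 0.608). Of the 33 genes with more than 3 counts in every library, the highest library exceeded the lowest by 2.94-fold (Tyms) to 408-fold (Top2a), with a median of 23.7-fold.

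**Figure D2:**
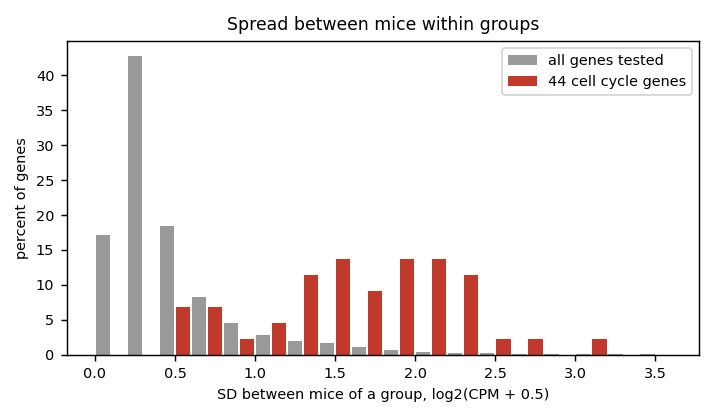
Percent of genes (vertical axis) by SD between mice of a group on the log2(CPM + 0.5) scale (horizontal axis, bins of 0.2), for all genes tested (gray) and the 44 cell cycle genes (red). The 44 genes have a median SD of 1.65, against 0.338 for all genes.

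Proliferation markers varied most. Mki67, whose Ki-67 protein coats mitotic chromosomes and is absent from resting cells, was at 118, 0.928 and 30.0 CPM in NGT mice 1, 2 and 3. It was at 30.8, 3.80 and 182 CPM in T1D mice and at 63.6, 3.58 and 351 CPM in Lira mice. The mice numbered 2 were low in all 3 groups, and the other 6 mice of the 3 groups overlapped. Top2a, the topoisomerase that untangles replicated DNA, ran from 0.309 CPM in NGT mouse 2 to 126 CPM in Lira mouse 3.

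Among the G1/S cyclins and E2F factors, E2f8, a repressor of E2F targets late in S phase, had the highest mean CPM. It was at 16.2, 0.541 and 3.17 CPM in NGT mice, at 8.10, 1.31 and 18.1 in T1D mice and at 11.35, 0.467 and 46.7 in Lira mice. Ccne1, which encodes cyclin E1 and takes cells into S phase with CDK2, was at 3.17, 0.309 and 0.7125 CPM in NGT mice, at 1.47, 0.589 and 7.14 in T1D mice and at 2.93, 0.312 and 17.1 in Lira mice. Ccne1 followed the order of libraries given above, and in E2f8 only the last 2 libraries changed places. The order of these last 2, NGT mouse 2 and Lira mouse 2, is not resolved in either gene. Ccne1 had 4 counts in both, and E2f8 had 7 and 6.
Ccne2, which encodes the second cyclin E, did not follow the order of libraries. It was at 7.74, 8.12 and 8.47 CPM in NGT mice, at 2.99, 3.80 and 6.20 in T1D mice and at 8.065, 5.92 and 20.0 in Lira mice. All T1D values lay under all NGT values, and Lira mouse 2 lay within the range of T1D. NGT mouse 2, in which most of the 44 genes were lowest, had as much Ccne2 as the other NGT mice.

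Origin licensing and the helicase make up 9 of the genes. Mcm2 to Mcm7 form the ring that unwinds DNA, Cdc6 and Cdt1 load it, and Cdc45 activates it. Mcm7 had the highest mean CPM of this role, with 24.9, 12.9 and 13.5 CPM in NGT mice, 15, 12.6 and 35.7 in T1D mice and 26.05, 10.98 and 72.3 in Lira mice. Mcm6 was at 19.9, 4.10 and 6.41 CPM in NGT mice, at 15.98, 7.40 and 25.9 in T1D mice and at 16.9, 5.76 and 65.9 in Lira mice. Lira mouse 3 stood above all other mice for both subunits, and the other 2 Lira mice lay within the range of NGT for Mcm6 and just above and below it for Mcm7. Subunits of 1 ring did not vary to the same extent: the highest library exceeded the lowest by 6.58-fold for Mcm7 and by 49.9-fold for Mcm5.

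In their lowest library, Rrm1, Pcna and Tyms kept the highest CPM of the 44 genes (26.0, 22.0 and 13.8). Rrm1, the large subunit of ribonucleotide reductase, was at 49.75, 42.85 and 44.2 CPM in NGT mice, at 26.0, 42.0 and 64.1 in T1D mice and at 53.8, 43.3 and 103 in Lira mice. Its small subunit Rrm2 ran from 1.09 CPM in Lira mouse 2 to 99.99 CPM in Lira mouse 3. The 2 subunits of 1 enzyme thus differed in spread, with an SD between mice of 0.529 for Rrm1 and 2.43 for Rrm2.
Pcna, the sliding clamp of the DNA polymerases, was at 40.8, 22.0 and 30.9 CPM in NGT mice, at 37.0, 27.8 and 52.15 in T1D mice and at 44.25, 23.9 and 109.5 in Lira mice. Tyms, which makes thymidylate, was at 32.4, 13.8 and 18.9 CPM in NGT mice, at 29.7, 24.2 and 33.75 in T1D mice and at 19.7, 15.97 and 40.5 in Lira mice. Pcna had mouse 2 lowest in each group, and Tyms had it lowest in each group too, with T1D mouse 2 above the lower 2 NGT mice. Tk1, a thymidine kinase of dividing cells, ran from 1.79 to 28.1 CPM.

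In the mice numbered 2, the mitotic cyclins and kinases other than Ccna2 and Aurka were at 0 to 0.917 CPM. Ccna2, which encodes cyclin A2 of S phase and G2, was at 31.35, 0.696 and 9.50 CPM in NGT mice, at 16.4, 2.095 and 37.55 in T1D mice and at 16.3, 2.03 and 110 in Lira mice. Cdk1, the kinase of mitotic entry, was at 0 counts in NGT mouse 2, which allows up to 0.232 CPM (3 counts), and at 30.1 CPM in Lira mouse 3, at least 130-fold higher. Cdc6, Aurkb, Melk, Bub1 and Cenpe were also at 0 in NGT mouse 2. Aurka, a kinase of the spindle poles, was at 9.01, 3.25 and 9.26 CPM in NGT mice, at 4.73, 2.55 and 9.07 in T1D mice and at 5.21, 3.35 and 23.7 in Lira mice. The other mitotic kinases, Plk1, Aurkb and Melk, peaked at 25.5, 20.2 and 5.68 CPM in Lira mouse 3. NGT mouse 2 had 3 or fewer counts for 10 of the 44 genes, Lira mouse 2 for 6 and T1D mouse 2 for 2, so that their levels there are not resolved.

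Of the spindle checkpoint and the anaphase-promoting complex, Ube2c, the ubiquitin-conjugating enzyme of that complex, had the highest mean CPM. It was at 24.7, 0.851 and 7.52 CPM in NGT mice, at 12.0, 1.77 and 33.3 in T1D mice and at 12.85, 1.635 and 82.7 in Lira mice. Cdc20, the activator of the complex, ran from 0.155 to 18.5 CPM, and the checkpoint kinases Bub1 and Ttk reached 13.95 and 7.98 CPM in Lira mouse 3. Among the centromere and passenger genes, Birc5, which encodes survivin, was at 22.2, 2.01 and 6.49 CPM in NGT mice, at 7.72, 2.42 and 33.5 in T1D mice and at 7.99, 1.17 and 64.5 in Lira mice. Among spindle motors, Kif11, the motor that pushes the spindle poles apart, was at 19.8, 1.16 and 4.196 CPM in NGT mice, at 9.84, 1.44 and 24.1 in T1D mice and at 10.3, 2.49 and 55.7 in Lira mice. Kif20a, a motor of the midzone, was at 5.46, 0.851 and 1.425 CPM in NGT mice, at 3.10, 0.786 and 5.135 in T1D mice and at 3.64, 0.935 and 18.6 in Lira mice. In each of these 4 genes with values in every mouse, the mice numbered 2 were the lowest of their group and Lira mouse 3 was the highest of all.

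Per gene length, Pcna had the highest median of the authors' FPKM values over the 9 libraries, 32.6, followed by Ube2c (12.97), Rrm1 (10.4), Mcm7 (7.75) and Rrm2 (7.25). By mean FPKM, Birc5 (14.2) came before Rrm1 (13.03), while its median was 5.01 and its value in Lira mouse 3 was 62.6. The make-up of the counts of all 44 genes differed between libraries. Mki67 made up 0.579% of these counts in NGT mouse 2 (95% Wilson interval 0.332 to 1.01%) and 18.5% in T1D mouse 3 (17.9 to 19.1%). Rrm1 made up 26.7% in NGT mouse 2 (24.9 to 28.7%) and 4.67% in Lira mouse 3 (4.46 to 4.89%). These intervals cover counting error only.

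**Figure D3:**
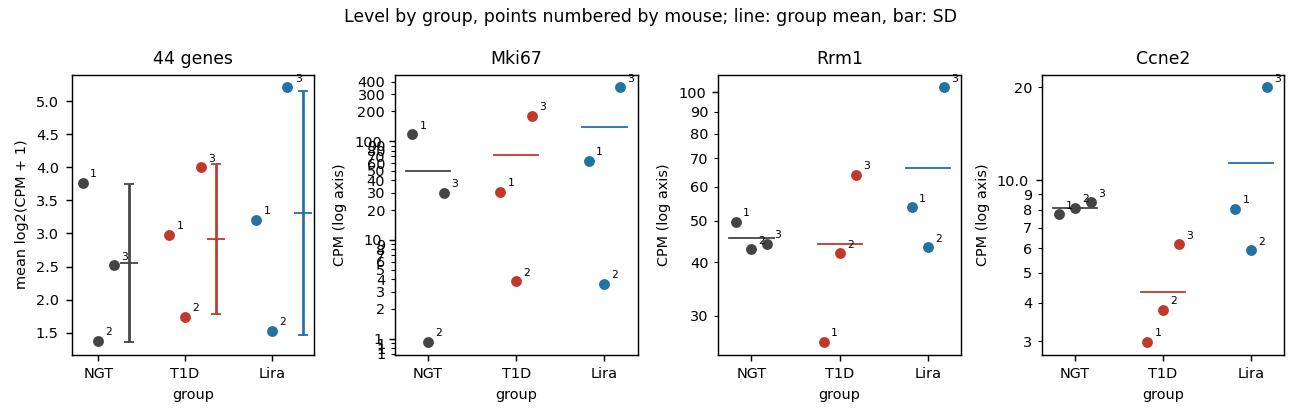
Mean level of the 44 genes (left, mean log2(CPM + 1), with group mean and SD) and CPM of Mki67, Rrm1 and Ccne2 on log axes (line at the group mean), for each mouse, numbered, in NGT, T1D and Lira. Mki67 runs from 0.928 to 351 CPM with all groups overlapping, and in Ccne2 the 3 T1D mice lie under the 3 NGT mice.

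Diabetes did not give a difference in these genes that passed the test. In T1D against NGT mice, 0 of the 44 genes were called at an adjusted p under 0.05 with a fold change over 2 (edgeR quasi-likelihood test, Benjamini-Hochberg adjustment over 13960 genes), as were 0% of all genes. At an unadjusted p under 0.05 stood 0 of the 44 genes and 3.95% of all genes, 2.36% with T1D higher and 1.6% with T1D lower. DESeq2 put 0 of the 44 there as well. Log2 fold changes had a median of 0.43 over the 44 genes and of 0.02 over all genes, with a median SE of 1.32 against 0.30. They were above 0 in 40 of the 44 genes, against 52.1% of all genes.
Ccne2 had the lowest p. It was 8.11 ± 0.364 CPM in NGT and 4.33 ± 1.67 CPM in T1D mice (SD, n = 3), a log2 fold change of -0.91 (SE 0.47, 95% interval -1.97 to 0.16, adjusted p = 0.977). It was the only 1 of the 44 genes whose groups did not overlap with T1D lower, as was the case for 5.08% of all genes, and none of the 44 had all T1D values above all NGT values, against 3.52%. By rank of p, Tyms followed with 0.43 (SE 0.41), then Ccne1 with 1.11 (SE 1.39) and Mcm6 with 0.69 (SE 0.90). For Mki67 the log2 fold change was 0.54 with a 95% interval of -3.49 to 4.56, which leaves room for large differences in either direction.
The direction rested on single mice. Without T1D mouse 3 the median was -0.43, and 37 of the 44 genes were lower in T1D. Without NGT mouse 2 it was -0.03, and 26 were lower. Without NGT mouse 1 it was 1.70.
NGT and T1D mice that carried one number deviated together from their groups, although the study describes no pairing and the numbers may be labels only. A fit of these 2 groups with the mouse number as a block put 1 of the 44 genes, Ccne2, under an unadjusted p of 0.05 (log2 fold change -0.96, adjusted p = 0.261), beside 14.2% of all genes. Within numbers, the mean level of the 44 genes in T1D less that in NGT was -0.78, 0.36 and 1.49 for mice 1, 2 and 3.

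Liraglutide did not give a difference that passed the test either. In Lira against T1D mice, 0 of the 44 genes were called, as were 0% of all genes, and 1 of the 44 had an unadjusted p under 0.05, against 3.33% of all genes (1.55% with Lira higher and 1.78% with Lira lower). That gene was Ccne2, at 11.3 ± 7.57 CPM in Lira and 4.33 ± 1.67 CPM in T1D mice (SD, n = 3), a log2 fold change of 1.39 (SE 0.47, 95% interval 0.32 to 2.46, adjusted p = 0.978). The groups overlapped, since Lira mouse 2 (5.92 CPM) lay under T1D mouse 3 (6.20 CPM). DESeq2 also put Ccne2 alone of the 44 genes under an unadjusted p of 0.05. Without Lira mouse 3 the difference was 0.69 and, as without T1D mouse 1 or T1D mouse 2, no longer had an unadjusted p under 0.05. None of the 44 genes had Lira and T1D mice that did not overlap, against 3.74% of all genes with Lira higher and 3.4% with Lira lower.
By rank of p, Rrm1 followed with 0.60 (SE 0.38), Aurka with 0.98 (SE 0.79) and Kif20a with 1.36 (SE 1.11). Over the 44 genes the median was 0.99 (all genes 0.04), and 43 were above 0, against 55.3% of all genes. Without Lira mouse 3, the mouse labelled with 9 weeks of treatment, the median was -0.73 and 42 of the 44 genes were lower in Lira mice. Tyms had the only negative log2 fold change with all mice, -0.20.

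In Lira against NGT mice, 0 of the 44 genes were called (0% of all genes), and 0 had an unadjusted p under 0.05, against 0.781% of all genes (0.487% with Lira higher and 0.294% with Lira lower). None had groups that did not overlap, against 2.49% of all genes with Lira higher and 1.78% with Lira lower. All 44 log2 fold changes were above 0, against 55.5% of all genes, with a median of 1.41 and a median SE of 1.33. The lowest p were those of Pcna, with 0.92 (SE 0.52, 95% interval -0.25 to 2.10, adjusted p = 0.999), Mcm6 with 1.54 (SE 0.91), Mcm7 with 1.09 (SE 0.67) and Ccne1 with 2.26 (SE 1.42). Without Lira mouse 3 the median was -0.32 and 36 of the 44 were lower in Lira mice. Without NGT mouse 1 it was 2.73. This comparison shares its mice with the other 2, so that the counts of the 3 comparisons are not independent of each other.

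**Figure D4:**
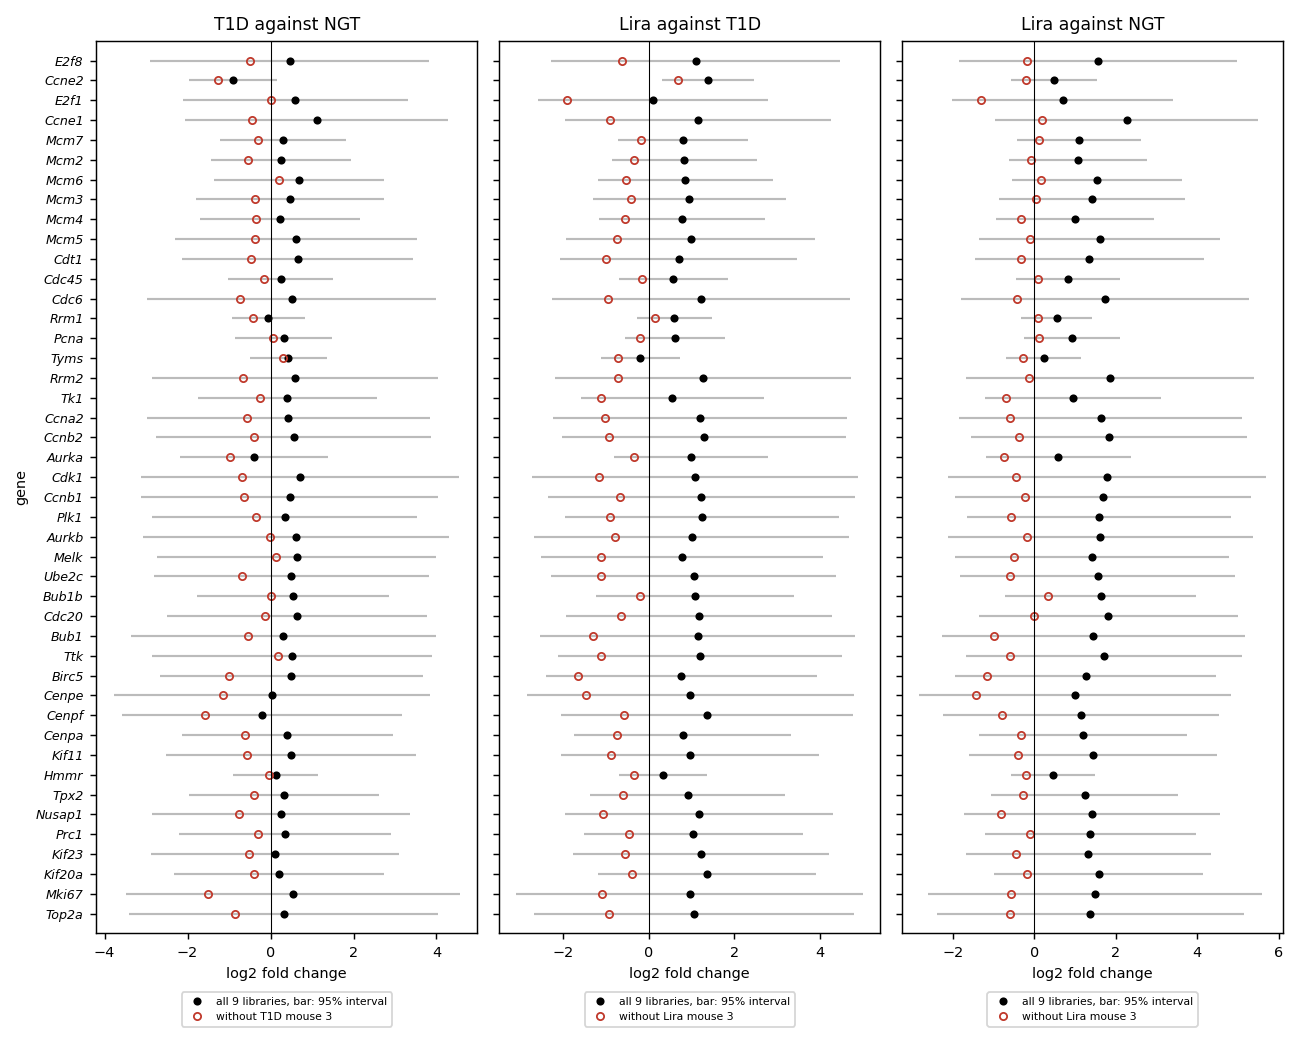
Log2 fold change of each of the 44 genes in the 3 comparisons (horizontal axes), with all 9 libraries (black points, gray bars: 95% interval) and without 1 mouse (red circles: T1D mouse 3 on the left, Lira mouse 3 in the middle and on the right). The interval of 1 gene in 1 comparison, Ccne2 in Lira against T1D, leaves out 0, and without 1 mouse most red circles fall on the other side of 0.

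Other replication and mitotic genes had the same high and low libraries. Of 57 further replication genes, 55 were highest in Lira mouse 3 and 49 lowest in a mouse numbered 2, and of 83 further mitotic genes 79 and 79. The mean level of both lists put the 9 libraries in the same order as that of the 44 genes. None of the 57 or 83 genes was called in any comparison. Medians of the log2 fold change were 0.22, 0.60 and 0.85 in T1D against NGT, Lira against T1D and Lira against NGT for the replication list, and 0.31, 0.90 and 1.18 for the mitotic list. At an unadjusted p under 0.05 stood 0, 1 and 0 genes of the replication list and 0, 0 and 0 of the mitotic list. The 1 gene was Pole, the catalytic subunit of DNA polymerase epsilon, with 3.86, 5.5 and 8.40 CPM in T1D and 10.7, 8.72 and 16.4 CPM in Lira mice (log2 fold change 1.01, SE 0.37, adjusted p = 0.978).

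The mean level of genes that hold the cycle back varied less. For 19 inhibitors and quiescence genes it ranged over 0.40 across the 9 libraries, against 3.83 for the 44 genes. It was again highest in Lira mouse 3 and lowest in the 3 mice numbered 2. Single genes of this list did not all move together, and some varied far more than the mean. Btg2 ran from 22.4 to 154 CPM and Gas1 from 17.6 to 147.5 CPM. No spread per gene is given for this list. Of the 19, 8 were highest in Lira mouse 3, against 19.9% of all genes, and 10 were lowest in a mouse numbered 2, against 30.1%. None was called. Cdkn1c, the inhibitor p57, was at 15.2, 18.8 and 19.1 CPM in NGT mice, at 19.6, 26.4 and 37.9 in T1D mice and at 16.1, 19.5 and 12.1 in Lira mice. Its log2 fold change was 0.66 in T1D against NGT (adjusted p = 0.977) and -0.82 in Lira against T1D (adjusted p = 0.978). All T1D values of Cdkn1c lay above all NGT values, as was the case for 3.52% of all genes. They also lay above all Lira values, as for 3.4% of all genes, by a small margin (19.57 CPM in T1D mouse 1 against 19.47 CPM in Lira mouse 2).
Btg2, an antiproliferative gene induced by p53 and by stress, was at 154, 40.7 and 85.8 CPM in Lira mice, and between 22.4 and 39.9 CPM in the other 6 mice. Its log2 fold change was 1.35 in Lira against T1D (adjusted p = 0.978) and 1.55 in Lira against NGT (adjusted p = 0.999). Lin54, a DNA-binding subunit of the DREAM complex, had 0.59 in Lira against T1D (SE 0.25) and Gas1, a growth arrest gene named after its value was seen because it completes the count, -1.43 (SE 0.62). Gas1 was at 147.5, 39.1 and 32.75 CPM in T1D mice and at 20.3, 35.0 and 26.1 CPM in Lira mice, so that T1D mouse 1 stood apart and the groups overlapped. These 4 genes are those of the list with an unadjusted p under 0.05. Of 12 G1 cyclins and kinases with their regulators, 7 were highest in Lira mouse 3 and 9 lowest in a mouse numbered 2, and their mean level put NGT mouse 1 and T1D mouse 1 before T1D mouse 3. Their median log2 fold changes were 0.23, 0.16 and 0.35 in T1D against NGT, Lira against T1D and Lira against NGT, and none was called. E2f3 alone of the 12 was lower in T1D than in NGT mice at an unadjusted p under 0.05 (log2 fold change -0.49, adjusted p = 0.977), with 19.1, 18.3 and 22.2 against 24.3, 30.9 and 28.5 CPM. Shares of all genes at an unadjusted p under 0.05 are those given above.

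Marker genes of several marrow cell types moved with the 44 genes. Erythroid genes, led by the globin Hba-a1, summed to 7511, 1192 and 3472 CPM in NGT mice, to 2425, 1241 and 20838 CPM in T1D mice and to 5155, 1633 and 31285 CPM in Lira mice. Of 24 measured, 20 were highest in Lira mouse 3 and 20 lowest in a mouse numbered 2. Granulocyte precursor genes, led by Chil3 and Mpo, summed to 556, 15.5 and 72.4 CPM in NGT mice, to 328, 25.3 and 270 CPM in T1D mice and to 204, 18.5 and 957 CPM in Lira mice. Of 10 measured, 9 were highest in Lira mouse 3 and 10 lowest in a mouse numbered 2. Mpo was at 0 in 1 library. The same 2 counts were 9 and 9 of 9 for megakaryocyte genes, 13 and 13 of 13 for neutrophil genes, and 12 and 11 of 13 for B cell precursor genes.
By mean level, the erythroid list put the libraries in the order of the 44 genes but for NGT mouse 3 and T1D mouse 1, and T1D mouse 2 and Lira mouse 2, which changed places. The granulocyte precursor list did so but for T1D mouse 3 and NGT mouse 1, and Lira mouse 1 and T1D mouse 1. The neutrophil and megakaryocyte lists differed from it in more places, with NGT mouse 1 second. The B cell precursor list did not follow it in T1D mouse 3, which ranked 2 for the 44 genes but had a level of 1.49 here, as low as T1D mouse 2 (1.49) and beside 1.51 in NGT mouse 3.
Lists of other cell types had another library first. Macrophage, osteoblast, osteoclast, chondrocyte and adipocyte lists were highest in T1D mouse 1, which ranked 5 for the 44 genes. Macrophage, osteoblast and osteoclast genes were nonetheless mostly lowest in a mouse numbered 2 (9 of 9, 12 of 13 and 9 of 9), and these lists had Lira mouse 3 in the next place. Smaller lists of hematopoietic progenitors and of T and NK cells had Lira mouse 3 first and NGT mouse 2 last, as the marrow lists above did. Chondrocyte genes, which mark the growth plate, summed to 14.6 to 90.4 CPM in NGT, 25.8 to 221 CPM in T1D and 18.3 to 93.9 CPM in Lira mice. Skeletal muscle genes were highest in NGT mouse 2 and Lira mouse 2 by mean level and summed to 109330 to 288960 CPM, although the bones had been cleaned of muscle. In these bulk samples, fewer dividing cells and less of these RNAs per cell cannot be told apart.

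**Figure D5:**
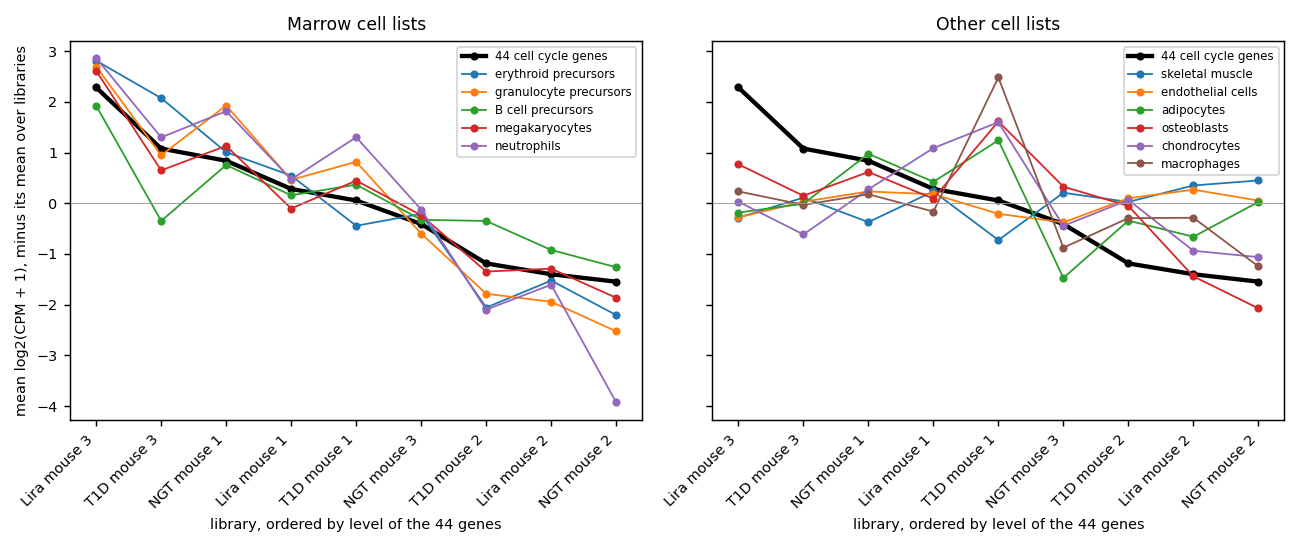
Mean log2(CPM + 1) of the 44 genes (black) and of marker lists (colors), each less its own mean over the 9 libraries, with libraries ordered by the level of the 44 genes. Erythroid, granulocyte precursor, megakaryocyte and neutrophil lists (left) go down with the 44 genes from Lira mouse 3 to NGT mouse 2, whereas on the right the macrophage, osteoblast, chondrocyte and adipocyte lists peak in T1D mouse 1 and the muscle list runs the other way at both ends.

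A fit with the mean level of 34 erythroid and granulocyte precursor genes as a covariate, chosen after the data were seen, left much less spread in the 44 genes. Their median SE went from 1.32 to 0.35 in T1D against NGT, while that of all genes went from 0.30 to 0.27. Their median coefficient of biological variation went from 1.04 to 0.312, and that of all genes from 0.307 to 0.263. With the covariate, the median log2 fold change of the 44 genes was 0.18 in T1D against NGT, -0.25 in Lira against T1D and 0.03 in Lira against NGT, where it had been 0.43, 0.99 and 1.41.
At an unadjusted p under 0.05 stood 1, 4 and 1 of the 44 genes with the covariate, beside 5.78%, 6.88% and 0.974% of all genes in the same fit. They were Ccne2 in T1D against NGT (-1.06), Ccne2 (1.13), E2f1 (-1.13), Birc5 (-0.65) and Tyms (-0.48) in Lira against T1D, and Birc5 in Lira against NGT (-0.65). The lowest adjusted p among them was 0.679. For Mki67 the covariate turned the Lira against T1D value to -0.31 and the Lira against NGT value to -0.23. The lists behind the covariate had already been seen to order the libraries nearly as the 44 genes do, so less spread was built into this fit. The level of the covariate is itself measured in these libraries, and whether marrow content accounts for the spread of the 44 genes was not tested.

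Counts of 13 of the 44 genes were not whole in 8 or 9 of the libraries: Ccne2, E2f1, Mcm5, Tyms, Ccna2, Ube2c, Cenpf, Birc5, Kif11, Kif20a, Tpx2, Hmmr and Prc1. Whether their reads were shared with other genes was not tested, and their levels are uncertain to that extent, those of Ccne2 and Tyms included.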

How the data were processed

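Tibia RNA from 3 NGT, 3 T1D and 3 Lira mice was sequenced, with 1 library per mouse, and the design text describes separate, randomly selected mice. The authors aligned their filtered reads to mouse and computed a level for each gene. They deposited expected counts per gene, not normalized (30.2% of the values are not whole), and FPKM values scaled for gene length and library total. Per the labels the build was mm9. The aligner, counting tool, annotation and strand setting are not given in the sources used here. Since the reference used here is of another build, coordinates are given only for RefSeq promoters. The authors' group means were not used.

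Expected counts were rounded, and a gene was kept when 3 or more of the 9 libraries held 10 or more counts. R 4.3.3 and edgeR 4.0.16 were used (TMM, glmQLFit without the robust option, glmQLFTest, 3 group means over 9 libraries). Calls required an adjusted p under 0.05 and a fold change over 2, the study's thresholds, without its rule that a gene appear in all mice of a group. SEs were derived from the F statistic. A count of 0 allows 3 counts, 0.163 to 0.238 CPM. The procedure was tested on simulated data. Alternatives were DESeq2 1.42.0, limma 3.58.1 on log2(CPM + 1) and its F test, library totals, other filters, fits of 2 groups, the replicate block, the robust option, FPKM ratios, other pseudocounts and each mouse left out. Chosen once the data had been seen were a fit without T1D mouse 1 and Lira mouse 3 and the marrow covariate.

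The members and gene lists were chosen with earlier results of these data known. In each comparison, genes with an unadjusted p under 0.05, or else the 4 lowest p, and in each role the gene with the highest mean CPM, got values in every mouse. Of other pathway lists, the 3 lowest p per comparison could be named, and of marker lists the 2 most abundant genes. For the pairing check, deviations of log2 CPM (prior count 2) from group means were correlated across genes. For equal numbers, r was 0.583, 0.647 and 0.283 between NGT and T1D, each over 0.1, so the number was also tried as a block there. It was -0.244, 0.615 and 0.271 between T1D and Lira and -0.173, 0.727 and 0.0125 between NGT and Lira, which were not treated as paired. Mice with unlike numbers reached 0.780 (NGT mouse 1 and Lira mouse 3). A high r thus does not by itself show pairing, and the study describes none.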

Additional observations from a re-analysis of the deposited data

How the results depend on the processing

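The number of the 44 genes called was 0 in every comparison under every alternative that gives a test, which FPKM ratios and other pseudocounts do not. Over all genes it was 0 too but for 1 gene, Gpm6b, called by DESeq2 in Lira against T1D (log2 fold change -1.77, adjusted p = 0.0367). DESeq2 gave the 44 genes no adjusted p in T1D against NGT. With an unadjusted p under 0.05, T1D against NGT had 1 of the 44 genes in place of 0, Ccne2, in a fit of only the 2 groups (4.02% of all genes), with the replicate block over all 9 libraries (5.39%) or in 2 groups (14.2%), and with the marrow covariate (5.78%). Lira against T1D had 2 in place of 1 with the replicate block in 2 groups (Ccne2 and Cenpf, beside 1.89% of all genes), 0 by the limma F test, 0 without both T1D mouse 1 and Lira mouse 3, and 4 with the covariate, beside 6.88% of all genes. Lira against NGT had 1 with the covariate. The replicate block changed no other call. Over all genes, those at an unadjusted p under 0.05 in T1D against NGT went from 552 to 1931 with the block in 2 groups, where the lowest adjusted p was 0.230. Leaving out 1 mouse gave 0 to 1 of the 44 genes in T1D against NGT, 0 to 2 in Lira against T1D (2 without T1D mouse 3, beside 5.1% of all genes, 0 without T1D mouse 1 or 2 or Lira mouse 3) and 0 to 5 in Lira against NGT (5 without Lira mouse 2, beside 3.2% of all genes in that fit against 0.781% with all mice).

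The median log2 fold change of the 44 genes ranged from -0.43 to 1.70 in T1D against NGT, from -0.73 to 1.83 in Lira against T1D and from -0.32 to 2.73 in Lira against NGT when 1 mouse was left out. On the log2(CPM + 1) scale of limma it was 0.43 in Lira against T1D and 0.83 in Lira against NGT. With the replicate block over all 9 libraries it was 0.62 and 0.90 there, and with the block in 2 groups 0.46 and 1.03, in place of 0.99 and 1.41. Without both T1D mouse 1 and Lira mouse 3 it was -0.79 in Lira against T1D and -0.36 in Lira against NGT. Mki67 ranged from -1.51 to 2.22, from -1.10 to 3.01 and from -0.57 to 3.18 in the 3 comparisons, Ccne1 in T1D against NGT from -0.45 to 2.57, and in Lira against T1D Aurka from -0.35 to 1.56 and Kif20a from -0.39 to 1.98. Without both mice, Rrm1 (-0.13), Aurka (-0.44), Kif20a (-0.37) and Mki67 (-1.46) in Lira against T1D and Mki67 in Lira against NGT (-0.60) were reversed, and with the covariate Mki67 was at -0.31 and -0.23. Mki67 in T1D against NGT was at -0.04 without NGT mouse 2. The cause of these reversals was not tested. The order of libraries by mean level was the same with pseudocounts of 0.5 and 5, while with FPKM or library totals NGT mouse 1 came before T1D mouse 3 and T1D mouse 1 before Lira mouse 1. In their lowest library 11 of the 44 genes had 3 or fewer counts, which limits the precision of their levels there.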
